A study of Homo sapiens with 6 samples.

Results

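The methionine cycle and the enzymes around S-adenosylmethionine (SAM) were followed in PANC-1 cells after METTL16 silencing through 10 genes: MAT2A, MAT2B, AHCY, AHCYL1, AHCYL2, MTR, MTRR, MTAP, SLC25A26 and CBS. The rule takes them by gene symbol, as genes that make, carry, use or recycle SAM, and sets no threshold on expression. All 10 were found among the 58735 genes of the deposited expression table, each in 1 row, and all 10 passed the filter on low counts. PANC-1 is an established cell line from a human pancreatic ductal adenocarcinoma. RNA-seq was run on 3 samples transfected with a control siRNA (si-NC) and 3 samples transfected with siRNA against METTL16 (si-METTL16), with no further agent or allele named in either group. The labels give the cells as siRNA transfected and the methods as stably transfected, and 1 label of the control samples calls them WT. The methods describe puromycin selection for shRNA knockdown cells, so which of these applied to the sequenced cells is unclear. Each group is given as biological triplicates. The question asked of these genes was how their mRNA levels differed between METTL16-silenced and control cells.

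SAM is the methyl donor of nearly all methyltransferases, including METTL16 itself. Methionine adenosyltransferase makes SAM from methionine, methyl transfer leaves S-adenosylhomocysteine, AHCY splits this product to homocysteine, and MTR remethylates homocysteine to methionine. METTL16 is known to bind hairpins in the 3′ UTR of MAT2A mRNA, which carry a conserved 9-base motif, and through them to tie splicing and stability of this mRNA to the supply of SAM.

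Matches to that motif, UACAGAGAA or UACAGAAAA, were sought on the transcript strand in the 3′ UTR of each gene, because they are the known contact between METTL16 and any of these mRNAs. The 3′ UTRs were those of the MANE Select transcripts in GENCODE v44 on GRCh38. MAT2A held 6 matches in its 3′ UTR of 1509 bases on the plus strand of chromosome 2, and 0 in the rest of the spliced transcript. Introns were not searched. Each is given 5′ to 3′ as RNA with 10 bases on either side, and the capitals mark the motif.
MAT2A site 1, chr2:85543802-85543830: uggcguaggcUACAGAGAAgccuucaagc
MAT2A site 2, chr2:85544589-85544617: ugugaugucaUACAGAGAAgucacagggc
MAT2A site 3, chr2:85544774-85544802: cugguguagcUACAGAGAAaccagcuucc
MAT2A site 4, chr2:85544889-85544917: auggcguaagUACAGAGAAgccaucaccu
MAT2A site 5, chr2:85545004-85545032: caagguguccUACAGAAAAaccuuggguu
MAT2A site 6, chr2:85545112-85545140: gcugguguggUACAGAGAAgccagcuugu

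Sites 1, 2, 3, 4 and 6 carried UACAGAGAA, and site 5 carried UACAGAAAA. The motif began 40 bases after the stop codon at site 1 and then at bases 827, 1012, 1127, 1242 and 1350, so that 5 of the 6 lay past the middle of the UTR. When each 29-base window was folded alone with RNAfold, the bases before and after the motif paired with each other, with 5 or 6 pairs between the flanks at every site. The motif was left with 6 to 9 of its 9 bases unpaired, and the folding energies ran from -8.7 kcal/mol at site 6 to -4.9 kcal/mol at site 4. Among 18780 such 3′ UTRs, 846 (4.50%) held at least 1 match and 49 (0.261%) held at least 2. MAT2A was the 1 gene with 6, the most found. The motif searched for is the one known from the MAT2A hairpins, so a high count in MAT2A was built into the search. That count is no independent measure of enrichment. Matches were found in 694 (9.13%) of the 7602 UTRs at least as long as that of MAT2A, and in 1173 UTRs (6.25%) when the opposite strand was read. The 3′ UTRs of the other 9 genes held 0 matches on the transcript strand, and AHCYL1 held 1 on the opposite strand. A match is a run of letters and not a measured binding site, and a UTR without 1 says nothing about METTL16 binding elsewhere.

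**Figure D1:**
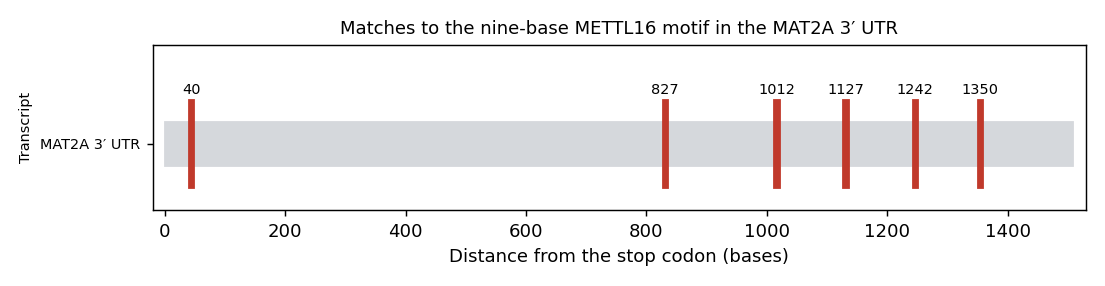
Positions of the 6 matches to the METTL16 motif (red bars, numbered by the first base) along the MAT2A 3′ UTR (grey), in bases from the stop codon. Site 1 lies at base 40 and the other 5 lie between bases 827 and 1350 of 1509.

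The targeted gene was checked first. METTL16 (chr17:2405562-2511891) had 1546, 1641 and 1764 counts in si-NC replicates 1, 2 and 3 and 571, 528 and 627 counts in the si-METTL16 replicates. Its level fell to 35.9% of that in si-NC cells, a log2 fold change of -1.48 (SE 0.07, adjusted p = 8.3e-05 by the quasi-likelihood test of edgeR, adjusted after Benjamini and Hochberg over all tested genes). Total counts were 15725298 to 18054436 per sample, and a count of 3 was worth 0.166 to 0.191 CPM (counts scaled to a common library total). Of 15089 genes tested, 5418 (35.9%) had an adjusted p under 0.05, 2780 (18.4%) higher and 2638 (17.5%) lower in si-METTL16 cells, and 7681 (50.9%) had groups whose CPM values did not overlap. The cells expressed 7 epithelial and ductal markers, 4 of which fell (KRT19, CDH1, KRT7 and SOX9), with summed levels of 3072 to 4160 CPM in control and 3229 to 3562 CPM in silenced samples. KRT8, KRT18 and EPCAM did not pass, with log2 fold changes of -0.23, 0.20 and 0.44. EPCAM was called higher in 1 of 16 alternatives, that with a replicate block. VIM was not called (log2 fold change 0.10). All 5 acinar and islet markers had at most 3 counts in any sample. COL1A1 and COL3A1 were higher in si-METTL16 cells, at a summed fibroblast marker level of 804 to 852 against 333 to 385 CPM, whereas DCN and LUM had at most 8 counts. Of 5 leukocyte and endothelial markers, CD68 was the 1 tested and was higher, and CD3E was at 0 in every sample. The summed level was 6.07 to 6.66 CPM in control and 8.09 to 9.49 CPM in silenced samples, and 3 of the 5 had at most 10 counts in every sample. Without the filter on low counts, 4 of these markers were fitted, with 1 called higher (CD68) and 0 lower. Their median log2 fold change was then -1.67. The part of these markers in the results below was not tested. Nor can fewer cells of a kind be told apart from less mRNA per cell in these bulk samples.

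Of the 10 methionine cycle genes, 3 passed the test (30%, against 35.9% of all tested genes). MAT2A and MTR fell (2 of 10, against 17.5% of tested genes called lower), AHCY rose (1 of 10, against 18.4% called higher), and 7 did not pass. The same 3 genes were those whose groups did not overlap by CPM (3 of 10, against 50.9%). The log2 fold change was negative for 7 genes and positive for 3, with a median of -0.23, beside -0.0045 over all tested genes. The median size of the change, without its sign, was 0.23 on the log2 scale for the 10 genes and 0.33 for all tested genes. Neither the share called nor the size of change was therefore above the background of this comparison, and the account below is one of single genes.

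**Figure D2:**
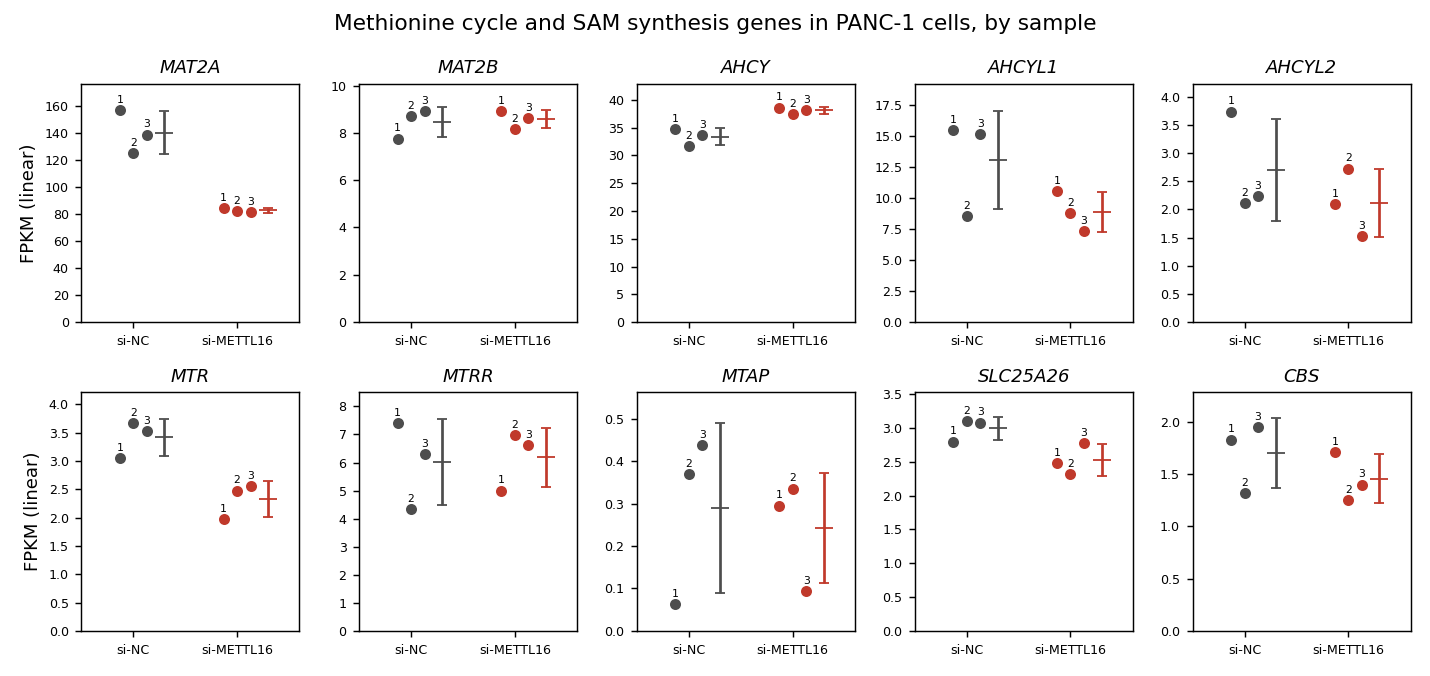
FPKM (linear axis from 0) of each of the 10 genes in the 3 si-NC samples (grey) and the 3 si-METTL16 samples (red). Points carry the replicate number, and the bar beside them is the mean ± SD. The groups lie well apart for MAT2A, AHCY and MTR and just apart for SLC25A26 (2.78 against 2.80), and they overlap for the other 6 genes.

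MAT2A, the catalytic subunit of the methionine adenosyltransferase of most tissues (chr2:85539165-85545280), had the highest level of the 10 genes and the largest change that passed the test. It had 156, 125 and 139 FPKM (fragments scaled by gene length and library total) in si-NC replicates 1, 2 and 3, and 84.4, 81.9 and 81.4 FPKM in the si-METTL16 replicates. Every silenced sample was below every control sample, and the silenced samples lay closer together, at 82.6 ± 1.62 FPKM against 140 ± 15.9 FPKM (SD, n = 3). In counts, the 3 control samples held 16867, 13504 and 15471 and the 3 silenced samples 9017, 8263 and 9430. MAT2A mRNA thus stood at 59.9% of its control level (95% interval 52.3% to 68.7%). The log2 fold change was -0.74 (SE 0.08, 95% interval -0.94 to -0.54, adjusted p = 7.6e-04 by edgeR's quasi-likelihood test). Of all tested genes, 8.84% had a log2 fold change as low or lower. The call held under all 16 alternatives tried, with log2 fold changes from -0.82 to -0.66 when 1 sample was left out.

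The gene total does not separate the forms of MAT2A mRNA. GENCODE v44 lists 6 MAT2A transcripts, 3 of them with a retained intron, and the deposited counts hold 1 value per gene. MAT2A also shares 562 exonic bases (12.5% of its 4485 exonic bases in GENCODE v44) with GGCX on the opposite strand. Count and FPKM imply a length of 6416 bases, so the shared part of the counted exons is not known. Use of strand in counting is not given in the sources used here. GGCX, which makes the vitamin K dependent carboxylase, did not pass the test (log2 fold change -0.16, adjusted p = 0.153 by edgeR's quasi-likelihood test), at 83.1 to 93.6 CPM in control and 77.0 to 86.4 CPM in silenced samples.

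MAT2B (chr5:163503114-163519336) makes the regulatory subunit that joins the MAT2A protein. Its mRNA had 7.75, 8.72 and 8.93 FPKM in the si-NC replicates and 8.92, 8.17 and 8.63 FPKM in the si-METTL16 replicates. The groups overlapped throughout, and the log2 fold change was 0.04 (95% interval -0.14 to 0.22, adjusted p = 0.718 by edgeR's quasi-likelihood test). Within each sample, MAT2A stood at 20.2, 14.3 and 15.5 times the FPKM of MAT2B in control cells and at 9.46, 10.0 and 9.43 times in silenced cells. The mean ratio was 16.7 ± 3.10 in control and 9.64 ± 0.330 in silenced samples (SD, n = 3), a difference of -0.77 on the log2 scale. The ratios of the groups did not overlap, and the exact permutation test over samples gave p = 0.1 (two-sided), the smallest that 3 against 3 allows. Both subunits come from the same samples, so this ratio carries the fall of MAT2A and does not add to it. MAT2A held 66.0% of the summed mean FPKM of the 10 genes in control cells and 54.0% in silenced cells.

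AHCY (chr20:34280268-34311802), the hydrolase that removes S-adenosylhomocysteine and so relieves its inhibition of methyltransferases, moved the other way. It had 34.7, 31.7 and 33.6 FPKM in the si-NC replicates and 38.6, 37.5 and 38.2 FPKM in the si-METTL16 replicates. All silenced samples were above all control samples, though the change was the smallest of those called, from 33.3 ± 1.51 to 38.1 ± 0.565 FPKM (SD, n = 3). The level was 116% of that in control cells, a log2 fold change of 0.21 (SE 0.06, 95% interval 0.08 to 0.34, adjusted p = 0.0223 by edgeR's quasi-likelihood test). It passed the same test in 1 of the 6 fits made without a sample, that without si-NC replicate 1, with adjusted p from 0.0326 to 0.0751 over the 6 fits. In all 10 other alternatives it was called.

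AHCYL1 and AHCYL2 make homologs of AHCY; AHCYL1 is known as a binding partner of the inositol trisphosphate receptor. AHCYL1 (chr1:109984686-110023741) had 15.5, 8.56 and 15.2 FPKM in the si-NC replicates and 10.6, 8.82 and 7.36 FPKM in the si-METTL16 replicates. Control replicate 2 lay among the silenced samples, which left the groups overlapping. The log2 fold change was -0.53 (95% interval -1.09 to 0.03, adjusted p = 0.124 by edgeR's quasi-likelihood test). Without si-NC replicate 2 it became -0.77 and passed the same test (adjusted p = 0.0134), and this was the 1 alternative of 16 in which it did.

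AHCYL2 (chr7:129225023-129430211) had 3.74, 2.11 and 2.24 FPKM in the si-NC replicates and 2.09, 2.73 and 1.53 FPKM in the si-METTL16 replicates. Here control replicate 1 was the highest sample and the others were mixed. The log2 fold change was -0.33 (95% interval -0.99 to 0.33, adjusted p = 0.399 by edgeR's quasi-likelihood test), and it was -0.022 without that replicate. Relative to the sum of its homologs, AHCY stood at 1.80, 2.97 and 1.93 in control cells and at 3.05, 3.25 and 4.30 in silenced cells. The mean ratio was 2.24 ± 0.642 in control and 3.53 ± 0.670 in silenced samples (SD, n = 3), 0.68 higher on the log2 scale, with an exact permutation p = 0.1 (two-sided). The groups did not overlap, but control replicate 2, with its low AHCYL1, came close to the nearest silenced sample, at 2.97 against 3.05.

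**Figure D3:**
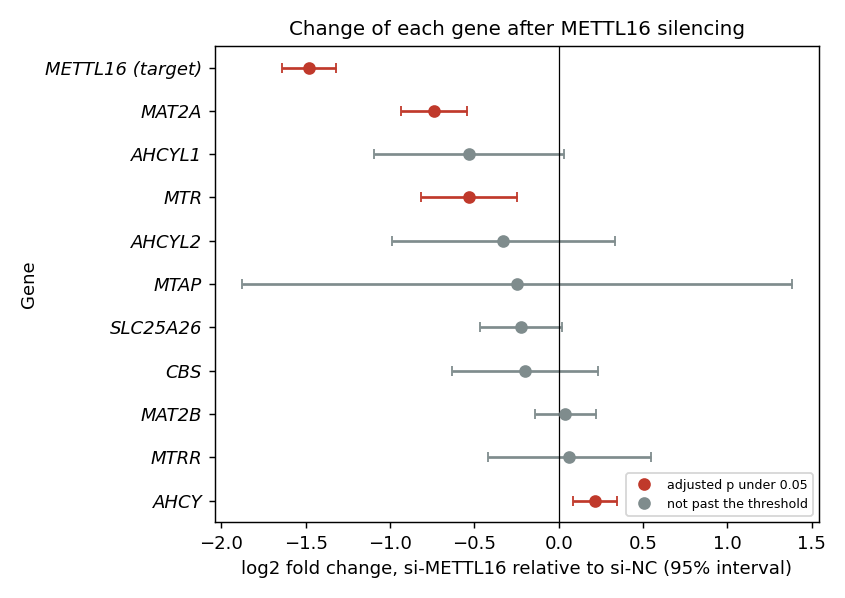
Log2 fold change of METTL16 and of the 10 genes in si-METTL16 relative to si-NC cells, with 95% intervals from edgeR's quasi-likelihood fit. Red marks an adjusted p under 0.05. Of the 10 genes, MAT2A and MTR lie below 0 and AHCY above 0 with intervals that do not reach 0, while MTAP has the widest interval, from -1.88 to 1.38.

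MTR, methionine synthase (chr1:236795281-236903981), which uses a cobalamin cofactor to remethylate homocysteine, was the other gene that fell. It had 3.05, 3.67 and 3.52 FPKM in the si-NC replicates and 1.97, 2.48 and 2.55 FPKM in the si-METTL16 replicates. The highest silenced sample was below the lowest control sample, and the spread was alike in both groups, at 3.41 ± 0.325 and 2.33 ± 0.317 FPKM (SD, n = 3). MTR stood at 69.3% of its control level, a log2 fold change of -0.53 (SE 0.12, 95% interval -0.81 to -0.24, adjusted p = 0.0135 by edgeR's quasi-likelihood test). It was called under all 16 alternatives, and leaving out 1 sample gave log2 fold changes from -0.61 to -0.43. MTR and AHCYL1 had the same log2 fold change to 2 decimals and differed in spread: within control cells MTR varied by 9.48% and AHCYL1 by 30.0% (coefficient of variation of the CPM).

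MTRR (chr5:7851186-7906025), the reductase that returns oxidised MTR to its active form, did not follow MTR. Its values were 7.40, 4.35 and 6.30 FPKM in the si-NC replicates and 5.00, 6.98 and 6.61 FPKM in the si-METTL16 replicates. Control samples lay on both sides of the silenced ones, and the log2 fold change was 0.06 (95% interval -0.42 to 0.55, adjusted p = 0.837 by edgeR's quasi-likelihood test). The ratio of MTR to MTRR was 0.412, 0.845 and 0.559 in control cells and 0.394, 0.355 and 0.386 in silenced cells. Its mean was 0.605 ± 0.220 and 0.378 ± 0.0204 (SD, n = 3), with a difference of -0.62 on the log2 scale and an exact permutation p = 0.1 (two-sided). The groups did not overlap, but control replicate 1 lay just above the highest silenced sample, and the size of the difference rested largely on control replicate 2. Without that sample it was -0.34, and over the 6 comparisons that each dropped a sample it ran from -0.86 to -0.34. MTRR shares 100 exonic bases with FASTKD3 on the opposite strand, a gene that did not pass the test either (log2 fold change 0.17, adjusted p = 0.523 by edgeR's quasi-likelihood test).

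SLC25A26 (chr3:66133610-66388116) makes the carrier that brings SAM into mitochondria. It had 2.80, 3.10 and 3.08 FPKM in the si-NC replicates and 2.48, 2.32 and 2.78 FPKM in the si-METTL16 replicates. All silenced samples were lower by FPKM, replicate 3 only just below control replicate 1, and those samples overlapped by TMM-scaled CPM. The log2 fold change was -0.22 (95% interval -0.47 to 0.02, adjusted p = 0.137 by edgeR's quasi-likelihood test), and it was called under 0 of 16 alternatives. SLC25A26 shares 2669 exonic bases (12.2% of its 21792 exonic bases in GENCODE v44) with LRIG1 on the opposite strand. Count and FPKM imply a length of 7317 bases, so here too the shared part of the counted exons is not known. The log2 fold change of LRIG1 was -0.37 (adjusted p = 0.0732 by the same edgeR test).

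CBS (chr21:43053191-43076943) commits homocysteine to cysteine synthesis by transsulfuration. It had 1.83, 1.32 and 1.95 FPKM in the si-NC replicates and 1.71, 1.25 and 1.40 FPKM in the si-METTL16 replicates. The groups overlapped, and the log2 fold change was -0.20 (95% interval -0.63 to 0.23, adjusted p = 0.432 by edgeR's quasi-likelihood test). CBS is uncertain because a near-identical copy, CBSL, could share its reads: CBSL had 10, 5 and 4 counts in control samples and 0 in each silenced sample. Adding them to CBS gave a log2 fold change of -0.23, still not called.

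MTAP (chr9:21802543-21937651), the phosphorylase that salvages methionine from the methylthioadenosine left by polyamine synthesis, was the least expressed of the 10 genes and varied most. It had 26, 155 and 189 counts in the si-NC replicates and 122, 131 and 42 counts in the si-METTL16 replicates, or 0.0623 to 0.437 FPKM over all 6. Control replicate 1 and silenced replicate 3 were the low samples, and the coefficient of variation was 68.9% in control and 53.8% in silenced cells. The log2 fold change was -0.25 with a 95% interval from -1.88 to 1.38 (adjusted p = 0.807 by edgeR's quasi-likelihood test), so a difference was not detectable at this spread. Its pseudogene copies MTAPP1 and MTAPP2 held 14 and 4 counts over all samples, and adding them gave -0.29. MTAP also shares 684 exonic bases with the pseudogene ERVFRD-3 and 460 with a long noncoding RNA gene, both on the same strand. It shares 257 with a long noncoding RNA gene on the opposite strand. The part of these genes in the MTAP counts was not tested.

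The genes next to MTAP in the 9p21 region were at very different levels. CDKN2A, CDKN2B-AS1 and ELAVL2 had 0 counts in all 6 samples, which allows up to 0.166 to 0.191 CPM per sample, and CDKN2B had 0 or 1 count. HACD4 and IFNE had at most 2 and 10 counts. By contrast, KLHL9 stood at 51.3 to 61.8 CPM, FOCAD at 38.0 to 48.3 CPM and DMRTA1 at 1.65 to 4.49 CPM. The 3 of these 9 genes with enough counts to be tested, KLHL9, FOCAD and DMRTA1, were not called.

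By deposited FPKM, the levels in control cells ran from MAT2A through AHCY, AHCYL1, MAT2B, MTRR, MTR, SLC25A26, AHCYL2 and CBS to MTAP. By the mean FPKM over all 6 samples, MAT2A lay at the 98.5th percentile of all tested genes and MTAP at the 8.11th. Neighbours in this order that overlapped between control samples were AHCYL1 with MAT2B, MTR with SLC25A26, and SLC25A26 with AHCYL2, so their order is open. In silenced cells MTR and SLC25A26 changed places, within their spread, and AHCYL2 overlapped CBS as well. The order of the middle genes also depended on the gene length. The length implied by count and FPKM was 6416 bases for MAT2A and 24829 bases for MTAP, longer than the 4485 and 14527 exonic bases of GENCODE v44, as for 8 of the 10 genes. For SLC25A26 and MTR it was shorter, 7317 against 21792 and 18209 against 19254 bases. On a scale of CPM per kilobase of MANE Select transcript, chosen after seeing the data, MAT2A, AHCY, MTRR and MTAP kept their ranks and the other 6 genes moved.

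**Figure D4:**
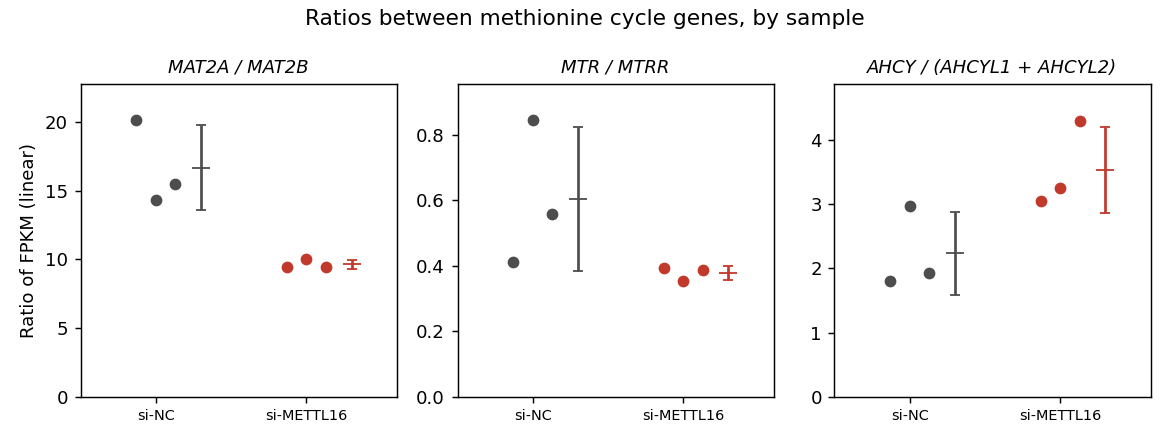
Within-sample ratios of FPKM (linear axes from 0) for MAT2A to MAT2B, MTR to MTRR, and AHCY to the sum of AHCYL1 and AHCYL2, in si-NC (grey, replicates 1 to 3 from left to right) and si-METTL16 samples (red, likewise), with mean ± SD. No ratio overlaps between the groups, and control replicate 1 of MTR to MTRR (0.412) and control replicate 2 of AHCY (2.97) come close to the silenced samples.

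The spread between replicates differed among the 10 genes. Over all tested genes the median coefficient of variation was 9.99% in control and 10.1% in silenced samples. AHCYL1, AHCYL2, MTRR, MTAP and CBS were above it in both groups, and their coefficients ran from 16.6% to 68.9%. MAT2B, AHCY and SLC25A26 were below it in both. MAT2A was above it in control samples only (11.4%, against 2.46% in silenced samples). MTR was above it in silenced samples only (13.2%, against 9.48% in control samples). For the 3 genes called it was at most 13.2%, in the silenced samples of MTR, though a small spread itself helps a gene to pass the test. Among the genes above the median in both groups, control replicate 2 was the lowest control sample for AHCYL1, AHCYL2, MTRR and CBS, and the second of the 3 for MTAP.

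The genes whose pattern over the 6 samples was most like that of MAT2A were found by the distance between log2 CPM values taken relative to the control mean. The search covered 9846 other genes with a symbol and a mean of at least 10 CPM, and left out genes with a clone-type name. They were TMEM14C (distance 0.12), PLXND1 (0.123), FAM43A (0.125), ERP29 (0.137) and SQSTM1 (0.14). TMEM14C had the closest pattern at a much lower level, a mean of 65.5 CPM against 713 CPM for MAT2A, and SQSTM1, the autophagy receptor p62, stood at 938 CPM. None of the 9 other methionine cycle genes was among these 5. MTAP could not be, because its means of 7.15 CPM in control and 6.06 CPM in silenced samples were below the level for entry.

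Of 14 other genes of the methionine cycle, methionine salvage and transsulfuration, 10 were tested, 3 rose, 2 fell and 5 did not pass, against 35.9% of all tested genes called (18.4% higher, 17.5% lower), and the median log2 fold change was -0.10 (all tested genes -0.0045). The liver enzymes MAT1A, GNMT, BHMT and BHMT2 had at most 10 counts in every sample and were not tested. SMS, spermine synthase, which releases methylthioadenosine, fell from 152 ± 17.2 to 48.0 ± 8.60 CPM (SD, n = 3; log2 fold change -1.67, SE 0.14, adjusted p = 2.9e-04 by edgeR's quasi-likelihood test). AMD1, the decarboxylase that diverts SAM to polyamines, rose from 121 ± 7.55 to 200 ± 3.90 CPM (SD, n = 3; log2 fold change 0.72, SE 0.06, adjusted p = 3.1e-04 by the same edgeR test). SMS and AMD1 both act in polyamine synthesis and moved in opposite directions. SRM, another polyamine enzyme of this list, did not pass (log2 fold change -0.17, adjusted p = 0.131 by edgeR's quasi-likelihood test).

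In the salvage pathway downstream of MTAP, MRI1, the isomerase that follows it, was lower and ENOPH1, a later enzyme, was higher. MRI1 had 16.8, 17.0 and 17.3 CPM in the si-NC replicates and 9.81, 9.81 and 11.5 CPM in the si-METTL16 replicates (log2 fold change -0.71, adjusted p = 0.0027 by edgeR's quasi-likelihood test). ENOPH1 had 35.0, 32.6 and 40.7 CPM and then 47.9, 57.3 and 57.0 CPM (log2 fold change 0.58, adjusted p = 0.0077 by the same edgeR test). Neither pair of groups overlapped, and both calls held under all 16 alternatives. APIP and ADI1, also of the salvage pathway, did not pass, with log2 fold changes of 0.02 and -0.21 (adjusted p = 0.908 and 0.305 by edgeR's quasi-likelihood test). CTH, a transsulfuration gene, did not pass either (log2 fold change -0.73, adjusted p = 0.0753 by the same edgeR test) and was called in 3 of 16 alternatives. GOT1, the cytosolic aspartate aminotransferase, was 0.35 higher on the log2 scale (adjusted p = 0.0241 by edgeR's quasi-likelihood test) and kept this call in 1 of the 6 fits made without a sample, that without si-METTL16 replicate 3.

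MTR depends on cobalamin, and 1 of 9 genes of cobalamin supply passed the test, against 35.9% of all tested genes, with 0 higher and a list median of -0.05. This was LMBRD1, a protein needed to release cobalamin from lysosomes, at 50.8, 41.3 and 45.9 CPM in control and 23.9, 28.0 and 28.1 CPM in silenced samples. Its groups lay apart, and the log2 fold change was -0.79 (adjusted p = 0.0019 by edgeR's quasi-likelihood test). The transcobalamin receptor CD320 and the cytosolic carriers MMACHC and MMADHC did not pass, with log2 fold changes of -0.06, -0.12 and -0.04.

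Among 15 genes listed for methylation of small molecules and proteins, 13 were tested, 2 rose, 2 fell and 9 did not pass, against 35.9% of all tested genes called, with a median log2 fold change of 0.06. PCMT1, which repairs damaged aspartyl residues, rose from 75.9 ± 4.75 to 106 ± 1.43 CPM (SD, n = 3; log2 fold change 0.48, adjusted p = 0.0018 by edgeR's quasi-likelihood test). NNMT, which methylates nicotinamide, was higher by 0.61 on the log2 scale (adjusted p = 0.016 by the same edgeR test) and lost this call without si-METTL16 replicate 3. GAMT, the last enzyme of creatine synthesis, and TPMT, which methylates thiopurine drugs, fell, with log2 fold changes of -0.56 and -0.26 (adjusted p = 0.0146 and 0.0263 by edgeR's quasi-likelihood test). GAMT lost its call without si-NC replicate 3, and TPMT kept its call in 1 of 6 such fits, that without si-METTL16 replicate 2. PNMT and INMT were too low to be tested.

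Of 5 genes that act on MAT2A mRNA, METTL16 fell, as given above, and 1 rose, against 35.9% of all tested genes called. CPSF7, a subunit of cleavage factor Im, had 58.2, 60.2 and 63.3 CPM in control and 91.3, 99.4 and 99.9 CPM in silenced samples, 0.68 higher on the log2 scale (SE 0.07, adjusted p = 5.3e-04 by edgeR's quasi-likelihood test). The other subunits, NUDT21 and CPSF6, and the m6A reader YTHDC1 did not pass, with log2 fold changes of -0.03, 0.11 and 0.03. All 8 proliferation markers were higher in silenced cells (18.4% of all tested genes were called higher), with a median log2 fold change of 0.99 and a summed level of 1887 to 2039 CPM against 820 to 944 CPM. RRM2, the small subunit of ribonucleotide reductase, had the largest of these changes (log2 fold change 2.71), followed by TOP2A (1.29) and CDK1 (1.07). These markers of dividing cells moved with the group beside MAT2A, MTR and AHCY, and their part in those changes was not tested.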

How the data were processed

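RNA-seq was available for 3 si-NC and 3 si-METTL16 samples of PANC-1 cells, with groups taken from the titles. Deposited by the authors were raw counts and FPKM, the count divided by a gene length and the total count. The submitters' processing notes name HISAT2 2.0.4, StringTie 1.3.0 and GRCh38; the counting program and use of strand are not given in the sources used here. The study's methods name limma without a transformation, so limma served as an alternative.

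Genes were filtered with filterByExpr (minimum count 10, minimum total 15), leaving 15089, scaled by TMM, and compared with the quasi-likelihood test (edgeR 4.0.16, R 4.3.3) at a threshold of 0.05 for the p-value adjusted over all of them after Benjamini and Hochberg. CPM are TMM-scaled, except that summed marker levels and the value of 3 counts use total counts. The common biological coefficient of variation was 16.5%. Ratios of FPKM were compared on the log2 scale by exact permutation over samples. Intervals cover 95%. Replicate pairs differed by more than sampling noise, so each sample was counted.

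Alternatives were a replicate block, each sample left out, 2 other filters, DESeq2 size factors, total counts, the Wald test of DESeq2 1.42.0, limma 3.58.1 on voom values and on log2(FPKM + 1) and log2(FPKM + 0.1) with a mean FPKM of at least 1, and near-identical copies summed. On simulated counts of 15089 genes, 38 of 92 genes changed by 0.75 and 83 of 108 changed by 1.5 (log2) were called, all with the right sign, with 10 unchanged genes called. No other genes were changed in this simulation, whereas 5418 were called in the data. The simulated shares therefore do not give the share of true changes found in this comparison.

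The 10 genes, the gene lists and the tests were chosen with earlier results of these data known. The text names all 10 and METTL16, from each list the called genes (at most the 3 highest and 3 lowest), and the 5 genes nearest to MAT2A over log2 CPM with a prior count of 2. Genes given as not called, untested, overlapping or marker genes were named in addition. Coordinates of genes are those of the deposited table, and 3′ UTR sequences came from GENCODE v44 on GRCh38, folded with RNAfold 2.7.2. The other experiments of the study were not analysed here. A marker gene of the epithelial and ductal list is not reported here.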

Additional observations from a re-analysis of the deposited data

How the results depend on the processing

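The 10 genes gave 1 higher and 2 lower calls under all alternatives that used every sample. Leaving out 1 sample gave 0 to 1 genes called higher, because AHCY passed in 1 of these 6 fits (log2 fold change 0.17 to 0.24), and 2 or 3 called lower, because AHCYL1 passed without si-NC replicate 2. The sign turned for genes that were not called: MAT2B from -0.024 to 0.077, MTRR from -0.13 to 0.23 and MTAP from -0.73 to 0.17 over these fits. Samples with the same replicate number were not treated as pairs in the main fit. The correlations of same-numbered deviations were small (0.0253, 0.0371 and 0.0298), and those of different numbers ran from -0.0388 to 0.00827. Each sample correlated best with its own number, as a hint from the data and not the design. With the replicate block, 5013 genes were called, and the log2 fold change of MAT2A was -0.73 (adjusted p = 0.00275 by edgeR). All genes called ranged from 4159 (without si-NC replicate 3) to 4526 when a sample was left out and from 4506 (no filter) to 5487 (voom) otherwise. By CPM per kilobase, MAT2B ranked 3, AHCYL1 4, SLC25A26 6, CBS 7, MTR 8 and AHCYL2 9. MTAP could not be tested on FPKM, its mean being under 1. Depth limits genes with few counts, such as CBSL and the pseudogene copies.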
